A study of Homo sapiens with 8 samples.

Results

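The state reached after OR21 followed by imatinib was read from 4 of the series' 8 expression arrays: the combination array and the untreated control array of each of 2 human cell lines, K562 and KBM5. Both lines are labelled as chronic myeloid leukemia lines and grew in culture medium with serum. Combination cells were pre-exposed to OR21 (also named OR-2100, a demethylating agent in the series title) at 100 nM for 3 days and then received imatinib (IM) at 1000 nM, with RNA taken 24 h after IM. Control cells received neither drug. The combination's own label leaves out the OR21 dose, so 100 nM is taken from the treatment protocol. The other 4 arrays, OR21 alone (100 nM for 3 days) and IM alone (1000 nM, 24 h after IM) in each line, are used here to estimate error. They also set single-drug levels beside the combination's. The study's stated purpose was to find expression that is specific to the combination.

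Both lines are driven by BCR-ABL1, a constitutively active tyrosine kinase that imatinib blocks. Its signal runs through STAT5, through RAS and ERK, and through PI3K and AKT; AKT keeps FOXO transcription factors out of the nucleus, and these branches feed MYC, growth metabolism and survival. Demethylating nucleosides are built into DNA during replication, where they trap the methyltransferase DNMT1, so that methylation is lost as cells divide and some silenced promoters can come back on. K562 cells are known for an erythroid programme that many agents can push further, whereas KBM5 was derived from a myeloid blast crisis.

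Each array gave 1 linear fluorescence intensity per probe set, and 17687 genes were represented by their brightest probe set. There was 1 array per line and treatment, so no group has replicates. Background is the 95th percentile of 612 negative-control probe sets on the same array, and stood at 182 and 194 on the combination arrays of K562 and KBM5, against 161 and 263 on their control arrays. Array medians over all probe sets were similar, between 77.8 and 83.3. Above background lay 6762 genes with the combination and 7061 in the control in K562, and 6637 genes with the combination and 5874 in the control in KBM5. A difference is log2 intensity with the combination minus log2 intensity in the control of the same line. Where the dimmer array was at background, the fold is given as a lower bound ("at least"), the bright array's intensity over the dim array's background.

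Tests came from limma, a linear model fitted to all genes with Benjamini-Hochberg adjustment over 17687 genes, and a gene is called at an adjusted p under 0.05. For both lines together, the error is how far the 2 lines disagree about each treatment. For each line alone, the difference is the plain distance between its 2 arrays, and its standard error (SE) comes from how far the combination departs from the sum of OR21 alone and IM alone, pooled over both lines. A per-line call therefore carries no spread between cultures. The test of the difference between lines, K562 minus KBM5, used the same model.

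The control arrays were first checked against markers of the 2 lines. Control K562 cells had the embryonic globin genes HBZ at 58796 and HBE1 at 6827, the erythroid factors GATA1 at 10445 and KLF1 at 429, and the transferrin receptor TFRC at 26471, all above background. Control KBM5 cells had the myeloid master factor SPI1 at 9209, whereas the other listed markers analysed, MPO, CSF2RB, CD34 and KIT, were at background there. The lysozyme gene LYZ, at 12342, and the granule protease gene CTSG, at 6992, were not on the marker list and were picked after their values were seen. HBG1 and CD33 were not analysed here.

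The promoters of 8 genes are shown as landmarks for the sections that follow, chosen with the expression results known, 1 for each response with a recognisable DNA element and 1 per line for genes that came on without IM doing so alone. Sequences are RefSeq promoters of build GRCh38.p14, the 250 bases before the start site read 5′ to 3′ along the gene's strand, with the matches in capitals. CISH, the feedback inhibitor that STAT5 induces, lies at chr3:50611775-50612024 on the minus strand, with STAT elements (TTCNNNGAA) in capitals. TXNIP, an inhibitor of thioredoxin and glucose uptake, lies at chr1:145996580-145996829 on the minus strand, with the FOXO element GTAAACA. SRM, the spermidine synthase gene and a MYC target, lies at chr1:11060019-11060268 on the minus strand and CTSD, the lysosomal protease cathepsin D, at chr11:1763928-1764177 on the minus strand, both with the E-box CACGTG that MYC and the lysosomal TFEB family can both bind. MCM6, a subunit of the replicative helicase, lies at chr2:135876444-135876693 on the minus strand, with the E2F elements TTTGGCGC or TTTCCCGC. EPB42, the red cell membrane protein 4.2, lies at chr15:43221019-43221268 on the minus strand, with the GATA element AGATAA. LXN, a carboxypeptidase inhibitor, lies at chr3:158672649-158672898 on the minus strand and PPP1R27, a regulatory subunit of protein phosphatase 1, at chr17:81835051-81835300 on the minus strand, both with CG dinucleotides, the sites of DNA methylation, in capitals.
CISH: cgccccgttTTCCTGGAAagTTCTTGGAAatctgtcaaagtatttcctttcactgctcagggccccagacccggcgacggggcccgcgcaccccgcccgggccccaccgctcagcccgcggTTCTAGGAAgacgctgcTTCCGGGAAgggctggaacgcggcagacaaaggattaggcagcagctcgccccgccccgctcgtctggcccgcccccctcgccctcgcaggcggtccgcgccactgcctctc
TXNIP: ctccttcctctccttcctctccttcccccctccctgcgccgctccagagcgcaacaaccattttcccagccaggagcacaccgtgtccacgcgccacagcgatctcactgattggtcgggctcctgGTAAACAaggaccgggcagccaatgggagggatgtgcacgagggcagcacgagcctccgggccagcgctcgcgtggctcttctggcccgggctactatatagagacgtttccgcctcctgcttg
SRM: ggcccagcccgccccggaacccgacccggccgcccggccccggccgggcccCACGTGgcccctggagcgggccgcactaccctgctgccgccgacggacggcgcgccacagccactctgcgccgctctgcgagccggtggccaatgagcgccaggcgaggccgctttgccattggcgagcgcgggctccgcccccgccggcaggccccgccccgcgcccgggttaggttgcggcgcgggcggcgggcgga
CTSD: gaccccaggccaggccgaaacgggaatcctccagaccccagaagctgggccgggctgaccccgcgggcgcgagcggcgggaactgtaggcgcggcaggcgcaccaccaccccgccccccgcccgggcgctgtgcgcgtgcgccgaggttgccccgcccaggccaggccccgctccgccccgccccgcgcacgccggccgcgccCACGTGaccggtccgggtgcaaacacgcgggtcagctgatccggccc
MCM6: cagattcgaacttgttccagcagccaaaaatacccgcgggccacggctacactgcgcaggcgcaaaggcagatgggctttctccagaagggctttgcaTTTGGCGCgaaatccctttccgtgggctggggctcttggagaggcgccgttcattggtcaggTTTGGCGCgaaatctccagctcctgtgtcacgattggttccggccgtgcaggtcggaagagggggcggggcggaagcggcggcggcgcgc
EPB42: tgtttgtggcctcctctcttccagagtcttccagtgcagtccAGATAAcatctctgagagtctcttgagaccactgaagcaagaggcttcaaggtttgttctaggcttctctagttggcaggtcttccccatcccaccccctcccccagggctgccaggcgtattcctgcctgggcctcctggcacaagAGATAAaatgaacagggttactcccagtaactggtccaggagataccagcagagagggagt
LXN: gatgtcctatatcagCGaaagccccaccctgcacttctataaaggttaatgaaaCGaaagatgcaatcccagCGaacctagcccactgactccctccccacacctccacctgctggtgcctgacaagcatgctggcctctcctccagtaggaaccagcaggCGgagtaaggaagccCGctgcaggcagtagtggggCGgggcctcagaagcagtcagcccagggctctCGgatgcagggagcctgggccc
PPP1R27: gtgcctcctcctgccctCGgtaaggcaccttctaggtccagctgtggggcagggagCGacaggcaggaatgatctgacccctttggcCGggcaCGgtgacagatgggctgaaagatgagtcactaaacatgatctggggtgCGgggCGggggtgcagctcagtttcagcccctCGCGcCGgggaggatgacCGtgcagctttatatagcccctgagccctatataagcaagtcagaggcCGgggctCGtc

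Over windows of 300 bases (250 before to 50 after the start) and on both strands, the E-box stood in 8 of 18 promoters of MYC and ribosome genes (44.4%) and in 8 of 22 of lysosome and autophagy genes (36.4%), against 8.69% of 14250 promoters. An E2F element stood in 18 of 30 promoters of G1/S and replication genes (60%), against 3.07% of all. The GATA element stood in 8 of 21 promoters of erythroid membrane and regulator genes (38.1%), against 7.6% of all. The STAT element stood in 2 of 12 STAT5 target promoters (16.7%), against 6.93% of all, and the FOXO element in 4 of 23 FOXO target promoters (17.4%), against 2.58% of all. No element searched is contained in another, and a match is a description of the sequence, not a bound site.

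Over both lines together, 35 genes passed the test, 0.198% of those tested: 11 were higher with the combination (0.0622%) and 24 lower (0.136%). At an unadjusted p under 0.05 there were 2806 genes, 15.9% of those tested. The count is fragile: it was 20 after quantile normalization, and 0 with 16 added to every intensity, with the 4 arrays of the comparison fitted alone, or with line left out of the model, and between 0 and 2 with any 1 of the 8 arrays left out.

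YPEL3, a growth-suppressing gene that FOXO factors are known to induce, had an intensity of 8797 with the combination against 361 in the control in K562, and 4820.4 with the combination against 259 in the control in KBM5. Both combination arrays lay above both control arrays, and over both lines YPEL3 rose by 4.41 ± 0.28 on the log2 scale (SE, adjusted p = 0.023). Its relative YPEL5 had 9946 with the combination against 981 in the control in K562, and 14918 with the combination against 2272 in the control in KBM5. CALCOCO1, a selective autophagy receptor, had 1257 with the combination against 157 in the control in K562, and 4027 with the combination against 369 in the control in KBM5. PNRC1, a nuclear coactivator that restrains ribosomal RNA synthesis, rose in both lines from very unlike levels, at 2266 with the combination against 399 in the control in K562, and 72298 with the combination against 7841 in the control in KBM5. The other named genes that rose were ASAH1 (the lysosomal acid ceramidase), MAN2A2 (a Golgi mannosidase of N-glycan processing), STARD10 (a phospholipid transfer protein), FAM210B (a mitochondrial protein of erythroid heme synthesis), the vesicle protein ICA1 and the thiol methyltransferase TMT1A. Their rises ran from 2.02 (FAM210B) to 2.94 (TMT1A) on the log2 scale.

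Among the lower genes, the neuronal-type glucose transporter SLC2A3 had 177 with the combination against 29006 in the control in K562, and 171 with the combination against 4698 in the control in KBM5. It was at background on both combination arrays, so it fell at least 159-fold in K562 and at least 24.2-fold in KBM5 (adjusted p = 0.049 over both lines). SLC2A14, a near-identical copy, had 1273 with the combination against 41825 in the control in K562 and may share signal with SLC2A3, so its own value is uncertain. LRP8, a lipoprotein receptor, was likewise at background on both combination arrays, at 87.3 with the combination against 730.5 in the control in K562, and 72.1 with the combination against 1429 in the control in KBM5. SLC7A1, the arginine and lysine transporter, had 234 with the combination against 1164 in the control in K562, and 188 with the combination against 1878 in the control in KBM5. SRM, whose promoter is shown above, had 2239 with the combination against 13419 in the control in K562, and 838 with the combination against 5201 in the control in KBM5, a log2 difference of -2.61 ± 0.31 over both lines (SE, adjusted p = 0.049). Also lower were the arginine methyltransferase PRMT1, the RNA polymerase III subunit POLR3G, the nucleolar chaperone NOLC1, the ERK-driven factor ETV5, the lysosomal membrane protein LAPTM4B, the exonuclease AEN and the nicotinic receptor subunit CHRNA5.

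**Figure D1:**
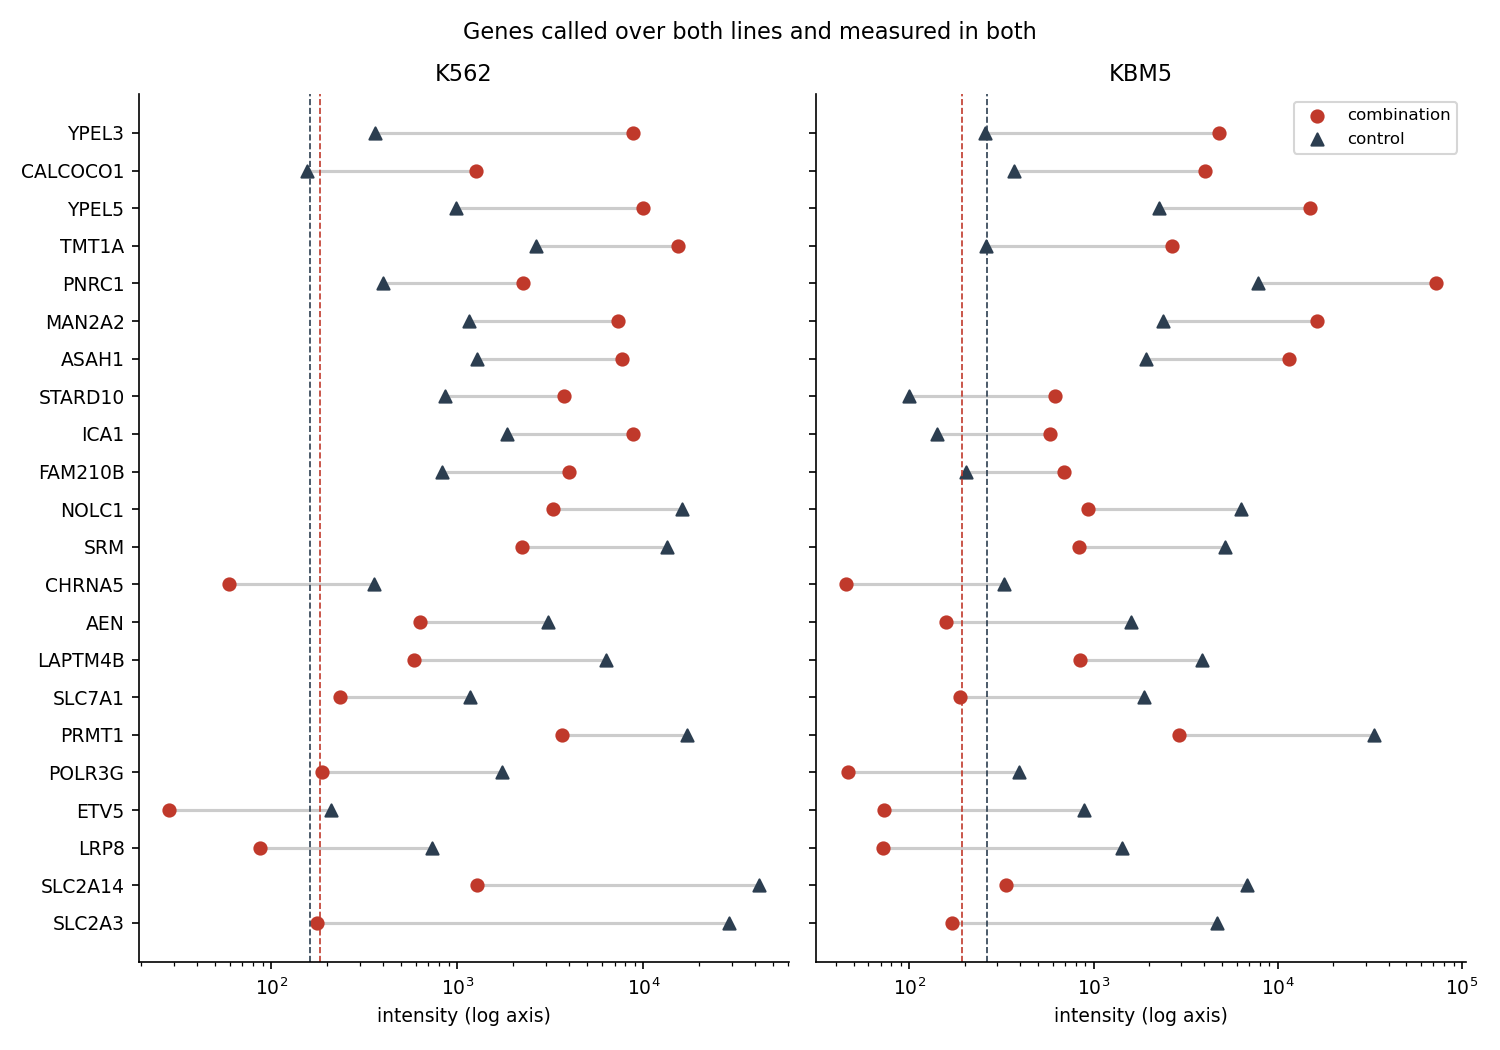
Intensity (log axis) of the named genes called over both lines in K562 (left) and KBM5 (right), with 1 point per array: red circles are combination arrays and dark triangles control arrays. Dashed lines mark background on the combination array (red) and the control array (dark); SLC2A3 is at 177 with the combination, against 29006 in the control in K562.

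The lines were also fitted with terms of their own, a model whose error has another source, so its counts cannot be set against those over both lines. In K562, 1044 genes were called (5.9%), 445 higher (2.52%) and 599 lower (3.39%), and in KBM5 2460 (13.9%), 1263 higher (7.14%) and 1197 lower (6.77%). At an unadjusted p under 0.05 the shares were 19.2% in K562 and 26.8% in KBM5. By size alone, 674 genes were at least 2-fold higher (3.81%) and 1063 at least 2-fold lower (6.01%) in K562, and 1351 higher (7.64%) and 1202 lower (6.8%) in KBM5, with the brighter array above background. Among genes above background on the brighter array, 4.82% were called higher and 7.35% lower in K562, and 14.6% higher and 14.4% lower in KBM5; these shares are the background for the gene groups below, most of which are well expressed. Without the K562 control or combination array 20 and 84 genes were called in K562, and without the KBM5 control or combination array 734 and 1126 in KBM5. With either array left out, the model rebuilds the difference from the single-drug arrays and has fewer arrays for its error. How much of the fall in calls comes from this was not tested, and these counts do not measure how much the pair carries.

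Of the genes called lower in K562, 223 were also called lower in KBM5, which is 37.2% of the K562 genes and 18.6% of the KBM5 genes. Of those called higher in K562, 114 were also called higher in KBM5, 25.6% of the K562 genes and 9.03% of the KBM5 genes. Opposite calls were fewer, with 10 genes higher in K562 and lower in KBM5, and 34 lower in K562 and higher in KBM5. Across the 8259 genes above background on at least 1 of the 4 arrays, the differences of the 2 lines had a Pearson r of 0.317 and a Spearman rho of 0.373, where the points are genes, not replicates, and all values of a line come from the same 2 arrays. The test of unlike responses, K562 minus KBM5, was passed by 831 genes, 4.7% of those tested (19.2% at an unadjusted p under 0.05): 390 were higher in K562 (2.21%) and 441 lower in K562 (2.49%).

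**Figure D2:**
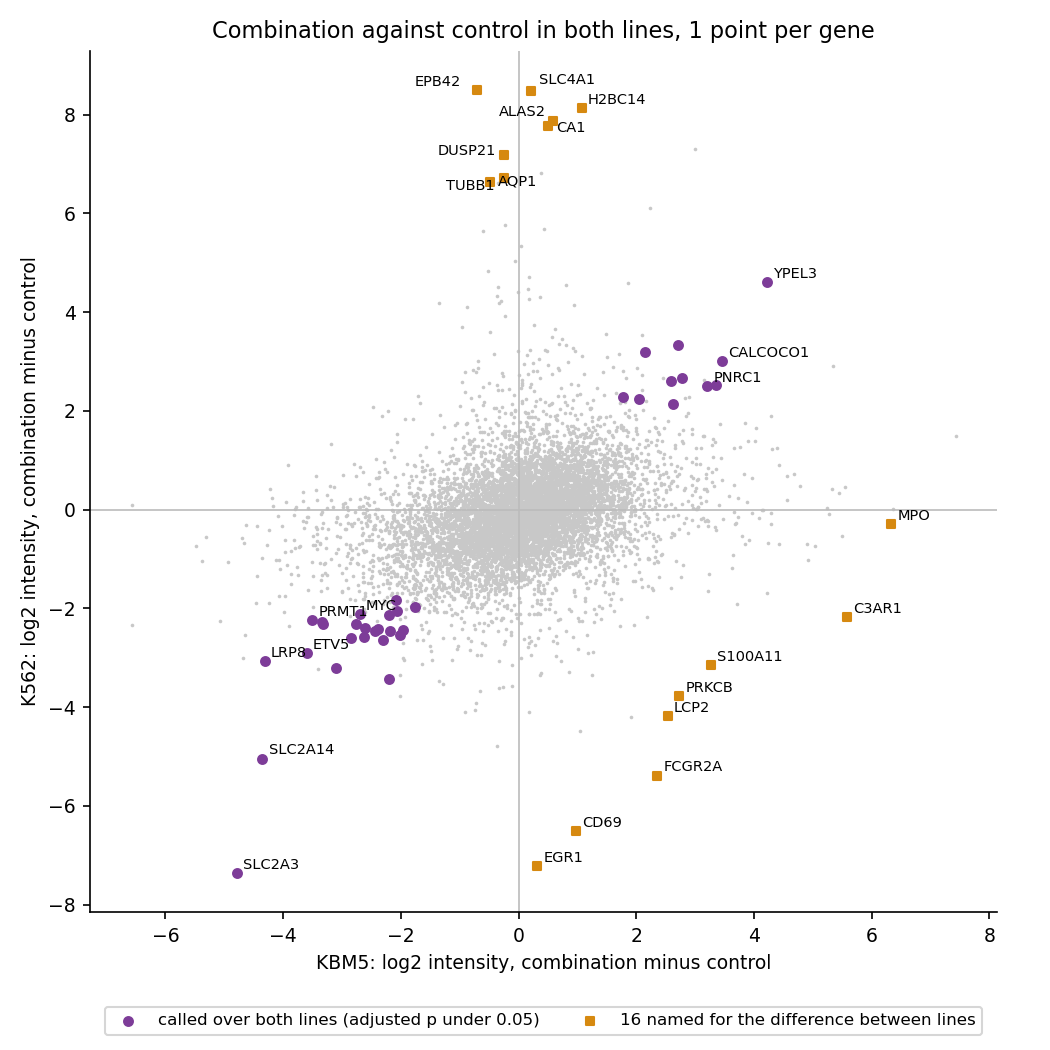
Log2 difference of combination minus control in KBM5 (horizontal) and K562 (vertical), with 1 grey point per gene above background on at least 1 of 4 arrays. Purple points are the 35 genes called over both lines and orange squares the 16 genes named for the difference between lines; EPB42 lies near 8.50 in K562 and -0.71 in KBM5.

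In K562 the STAT5 and ERK outputs of BCR-ABL1 signalling that passed the test were all lower with the combination. In KBM5 members of both lists passed in each direction. Over all genes in KBM5, 7.14% were called higher and 6.77% lower. Among KBM5 genes above background on the brighter array, the shares were 14.6% and 14.4%. The list counts include members at background on both KBM5 arrays, 7 of the 17 STAT5 targets and 12 of the 21 ERK genes, so neither share matches them exactly. Of 17 STAT5 targets, 8 were called lower and none higher in K562 (median -0.60), whereas 3 were called lower and 2 higher in KBM5 (median -0.13), and the difference between lines passed for 8 of them, 7 of these lower in K562. For comparison, the median over all genes was 0.03 in K562 and -0.02 in KBM5. CISH had 94.9 with the combination against 1291 in the control in K562, and 735 with the combination against 2986 in the control in KBM5. It fell at least 7.09-fold in K562 (adjusted p = 0.00049) and 4.06-fold in KBM5 (adjusted p = 0.0055). SOCS2, another feedback inhibitor of cytokine receptors, had 515 with the combination against 5947 in the control in K562, and 116 with the combination against 283 in the control in KBM5. PIM1, a survival kinase, had 2830.2 with the combination against 13456 in the control in K562, a 4.75-fold fall. In KBM5 PIM1 went to background, at 122 with the combination against 4088 in the control, a fall of at least 21-fold. Its relative PIM2 fell 22.5-fold in K562, at 604 with the combination against 13589 in the control; in KBM5 it had 383 with the combination against 185 in the control (adjusted p = 0.078). The BMP-responsive inhibitor of differentiation ID1 and the cyclin gene CCND2 also fell in K562, to 66.0 and 2505 with the combination, against 1104 and 13376 in the control. BCL6, a repressor that STAT5 keeps low, rose in KBM5, at 826 with the combination against 139 in the control, at least 3.14-fold higher.

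For ERK output, 8 of 21 genes were called lower and none higher in K562 (median -0.79), whereas 3 were lower and 3 higher in KBM5 (median -0.15). EGR1, the immediate early transcription factor that ERK switches on, had 43.1 with the combination against 6394 in the control in K562. That is a fall of at least 35.1-fold (adjusted p = 1.1e-05), and EGR1 was at background on both KBM5 arrays. The ERK phosphatase DUSP6 showed the reverse: it was at background on both K562 arrays and had 162 with the combination against 1925 in the control in KBM5, at least 9.91-fold lower. CCND1, the G1 cyclin gene, had 24.8 with the combination against 375 in the control in K562, at least 2.06-fold lower. ETV5 was the single ERK gene called over both lines, at background with the combination in both, at 28.1 with the combination against 209 in the control in K562, and 72.7 with the combination against 883 in the control in KBM5. FOS and JUNB were called higher in KBM5, where FOS had 306 with the combination against 114 in the control and JUNB 429 with the combination against 165 in the control. The immediate early gene IER2 fell 7.99-fold in K562, at 424 with the combination against 3393 in the control, and had 880.3 with the combination against 858 in the control in KBM5 (adjusted p = 0.98). SPRY4 was called lower in K562 and PHLDA1 higher in KBM5 on arrays at background. SPRY1, a feedback inhibitor of receptor signalling, fell 3.12-fold in KBM5, at 221 with the combination against 689 in the control. Line differences passed for 6 of the 21 ERK genes, all lower in K562.

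FOXO targets moved the other way in both lines. Of 23, 7 were called higher and none lower in K562 (median 0.86), and 12 higher and none lower in KBM5 (median 1.29). TXNIP had 18914 with the combination against 5072 in the control in K562, and 35333 with the combination against 4922 in the control in KBM5. It rose 3.73-fold in K562 and 7.18-fold in KBM5 (adjusted p = 0.011 and 0.00064). CITED2, a transcriptional regulator, had 4206 with the combination against 814 in the control in K562, and 10811 with the combination against 3430.3 in the control in KBM5. IRS2, the insulin receptor adaptor, rose 4.98-fold in KBM5, at 2697 with the combination against 541 in the control, and was at background on both K562 arrays. Of 20 genes for proteins of the kinase's own pathway, 2 were called higher and 1 lower in K562, and 4 higher and none lower in KBM5. BCR, whose promoter drives the fusion gene, had 1522 with the combination against 1442 in the control in K562, and 2542 with the combination against 809 in the control in KBM5, where it rose 3.14-fold (adjusted p = 0.011). ABL1 had 2329.8 with the combination against 2316 in the control in K562, and 3567 with the combination against 2148 in the control in KBM5, and passed in neither line. FYN, a SRC-family kinase, rose 6.87-fold in K562, at 1645 with the combination against 239 in the control, and the inositol phosphatase INPP5D (SHIP1), a brake on PI3K, rose at least 2.72-fold there, to 439 with the combination, against 152 in the control. JAK2, the cytokine receptor kinase, rose at least 1.28-fold in KBM5, at 338 with the combination against 113 in the control, and the RAS exchange factor SOS1 rose 2.34-fold, at 3504 with the combination against 1498 in the control.

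Genes for making ribosomes fell in both lines. Of 23 MYC and ribosome biogenesis genes, 15 were called lower in K562 (median -1.52) and 17 in KBM5 (median -1.78), with none higher in either. MYC itself had 2768 with the combination against 12058 in the control in K562, and 3178 with the combination against 20649.5 in the control in KBM5. Both combination arrays lay below both control arrays, and over both lines MYC differed by -2.41 ± 0.29 on the log2 scale (SE, adjusted p = 0.049). NCL, the nucleolar protein nucleolin, had 10220.0 with the combination against 30745 in the control in K562, and 8720.2 with the combination against 30174 in the control in KBM5. NOP16, a nucleolar MYC target, had 525 with the combination against 5339.5 in the control in K562, and 398 with the combination against 1610.5 in the control in KBM5. POLR1A, the large subunit of RNA polymerase I, had 677 with the combination against 2867 in the control in K562, and 1263 with the combination against 3637 in the control in KBM5. MRTO4, a ribosome assembly factor, had 234 with the combination against 1287 in the control in K562, and 133 with the combination against 720.2 in the control in KBM5. The polymerase, nucleolar and assembly genes thus lay lower on both combination arrays than on the control arrays of their lines. The difference between lines passed for 2 of the 23, the purine enzyme gene PPAT and TFRC, both lower in KBM5, where TFRC had 1543 with the combination against 19539 in the control. In K562 TFRC had 29952 with the combination against 26471 in the control.

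Amino acid supply fell in both lines and further in KBM5. Of 27 amino acid transporters and ATF4 targets, 8 were called lower and none higher in K562 (median -1.01), and 14 lower and 1 higher in KBM5 (median -1.66). Line differences passed for 7 genes, and in 6 of these the KBM5 value was the lower. PHGDH, the entry enzyme of serine synthesis, had 805 with the combination against 4052 in the control in K562, and 51.1 with the combination against 4855 in the control in KBM5. It fell 5.03-fold in K562 and at least 25-fold in KBM5, and its line difference was 4.24 ± 0.70 (SE, adjusted p = 0.0093). PSAT1, the next enzyme of that pathway, had 1983 with the combination against 11521 in the control in K562, and 655 with the combination against 16423 in the control in KBM5. ASNS, asparagine synthetase, had 3291 with the combination against 9330.0 in the control in K562, and 161 with the combination against 2332 in the control in KBM5. SLC7A5, the leucine transporter, had 878 with the combination against 7009 in the control in K562, and 211 with the combination against 5381 in the control in KBM5. WARS1, the tryptophan transfer RNA ligase, fell 6.76-fold in K562, at 3726 with the combination against 25205 in the control. SLC38A5, a glutamine and serine transporter, was in no list here but among the largest falls in KBM5, at 85.2 with the combination against 3790.3 in the control, at least 19.5-fold lower. The exception in KBM5 was the cystine transporter SLC7A11, which rose 5.62-fold to 6164 with the combination, against 1097 in the control.

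Cholesterol and fatty acid synthesis separated the lines. In KBM5 18 of 23 genes were called lower and none higher (median -2.17), against 3 lower and none higher in K562 (median -0.70), and the difference between lines passed for 8. HMGCS1, which makes the precursor of mevalonate, had 561 with the combination against 23319 in the control in KBM5, a 41.6-fold fall (adjusted p = 4.2e-05). In K562 HMGCS1 had 4448 with the combination against 9183 in the control (adjusted p = 0.11). DHCR7, the last enzyme of cholesterol synthesis, fell in both, at 5515 with the combination against 20575 in the control in K562, and 1018 with the combination against 22412 in the control in KBM5. FASN, fatty acid synthase, had 1069.6 with the combination against 3947 in the control in K562, and 134 with the combination against 2548 in the control in KBM5. SCD, the stearoyl-CoA desaturase, had 15659 with the combination against 48450.3 in the control in K562, and 2632 with the combination against 31422 in the control in KBM5. DHCR7, FASN and SCD were the 3 called in K562, and their line differences also passed, so both lines fell and KBM5 fell further.

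In glucose metabolism, 6 of 21 genes were called lower and 2 higher in K562, and 10 lower and 2 higher in KBM5. The glycolytic enzymes LDHA, PGK1, PGAM1 and ENO1 fell in both lines; LDHA, lactate dehydrogenase A, had 26319 with the combination against 82676 in the control in K562, and 8553 with the combination against 68215 in the control in KBM5. PKM, pyruvate kinase of proliferating cells, fell 17.2-fold in K562, at 994 with the combination against 17054 in the control. In KBM5 PKM had 17928 with the combination against 33808 in the control (adjusted p = 0.11), and its line difference passed the test (adjusted p = 0.0069). The main glucose transporter SLC2A1 was called in opposite directions: it rose 4.21-fold in K562, at 24458 with the combination against 5803 in the control, and fell 5.55-fold in KBM5, at 409 with the combination against 2272 in the control. PDK2, which holds back pyruvate oxidation, rose in both, at 922 with the combination against 145 in the control in K562, and 1703 with the combination against 310.1 in the control in KBM5. ALDOC, an aldolase, fell 8.54-fold in KBM5, at 1049.9 with the combination against 8965 in the control.

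Lysosome and autophagy genes rose, mainly in KBM5. Of 30, 17 were called higher and 1 lower in KBM5 (median 1.48), and 6 higher and 2 lower in K562 (median 0.46). The difference between lines passed for 7 genes, 6 of them higher in KBM5. CTSD had 1871 with the combination against 718 in the control in K562, and 8413 with the combination in KBM5, above all 3 other KBM5 arrays. It rose 2.61-fold in K562 and 15-fold in KBM5 (line difference -2.52 ± 0.48, adjusted p = 0.016). The autophagosome protein gene GABARAPL1 had 4043 with the combination against 158 in the control in KBM5, at least 15.4-fold higher. The autophagy adaptor SQSTM1 had 3938 with the combination against 981 in the control in KBM5, and the protease cathepsin B, CTSB, had 28402 with the combination against 4517 in the control. In K562 the calls included BNIP3L, which clears mitochondria from maturing red cells and had 37019.6 with the combination against 11928 in the control, and the autophagy initiator ATG14, at 719.6 with the combination against 194 in the control. The cysteine protease CTSH was called in opposite directions, at 693 with the combination against 2885 in the control in K562, and 269.6 with the combination against 87.7 in the control in KBM5. Granulocyte and monocyte genes moved in the same KBM5 pair, as described below; the share of either group in the other's change was not tested.

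**Figure D3:**
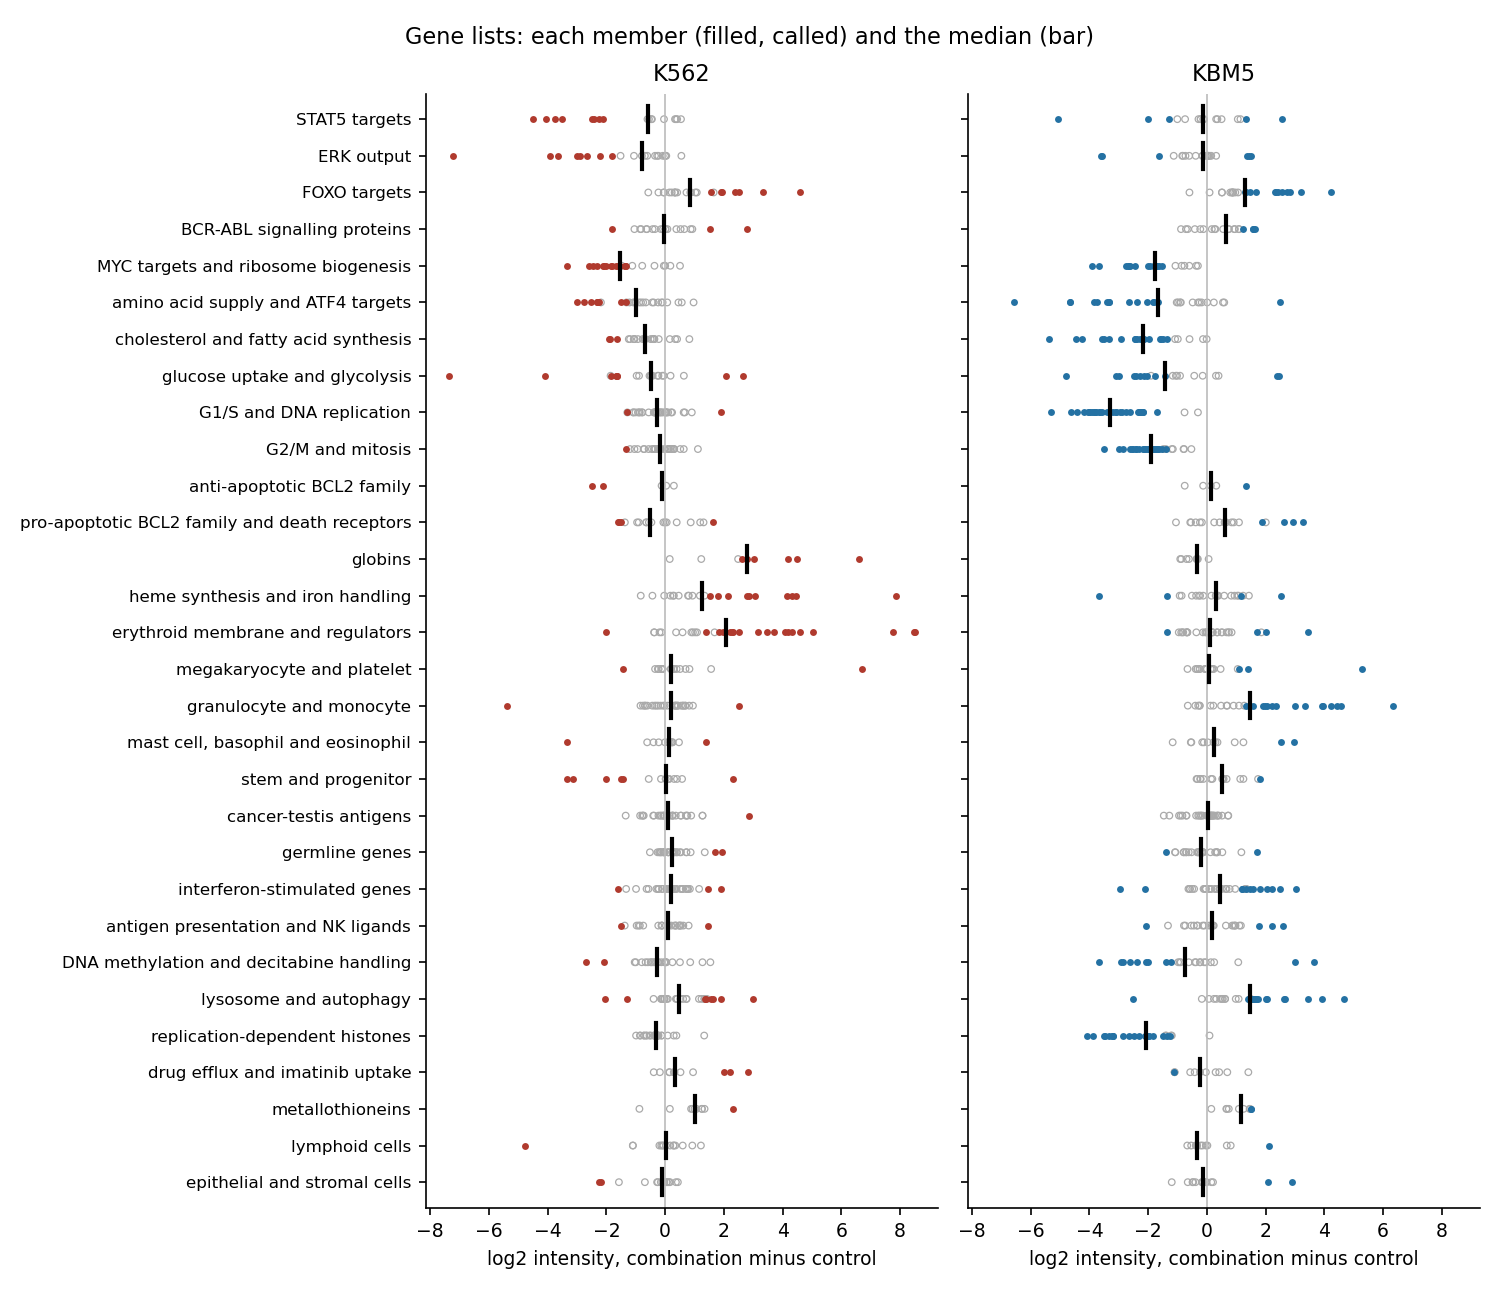
Log2 difference of combination minus control for every measured member of 30 gene lists in K562 (left) and KBM5 (right). Filled points are genes called at an adjusted p under 0.05, open points are not called, and black bars are list medians; the bar of G1/S and DNA replication lies at -0.29 in K562 and -3.30 in KBM5.

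The cell cycle genes separated the 2 lines. Of 34 genes of G1/S and DNA replication, 32 were called lower and none higher in KBM5 (median -3.30), against 1 lower and 1 higher in K562 (median -0.29). In a direct test, 26 of the 34 differed between lines, all lower in KBM5. MCM6 had 93.7 with the combination against 1312 in the control in KBM5, a fall of at least 6.75-fold. In K562 MCM6 had 817 with the combination against 886 in the control (log2 difference -0.12 ± 0.34, SE), and its line difference was 3.69 ± 0.48 (adjusted p = 0.0034). CDC45, the helicase's loading partner, had 13582 with the combination against 20040.1 in the control in K562, and 177 with the combination against 7000.3 in the control in KBM5. CCNE1, the cyclin of S phase entry, had 1701 with the combination against 907 in the control in K562, and 60.4 with the combination against 907 in the control in KBM5. TYMS, thymidylate synthase, had 16353 with the combination against 20693 in the control in K562, and 739 with the combination against 15979 in the control in KBM5. RRM2, the ribonucleotide reductase subunit made in S phase, had 2969 with the combination against 5989 in the control in K562, and 529 with the combination against 8824 in the control in KBM5. Each of these KBM5 genes lay at least 4.67-fold below its control, while the K562 arrays differed by at most 2.02-fold. DTL, a ligase adaptor of replication, had 129 with the combination against 3198 in the control in KBM5. The phosphatase gene CDC25A was the 1 called lower in K562, at 222 with the combination against 550.5 in the control. CDT1, which licenses origins, was called in opposite directions: it rose to 1357 with the combination, against 364 in the control in K562, and fell to 94.5 with the combination, against 471 in the control in KBM5.

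Outside the list, HELLS, a chromatin remodeller of DNA methylation, and UBE2T, a ubiquitin enzyme of Fanconi repair, were among the largest falls in KBM5. HELLS had 27.5 with the combination against 715 in the control, and UBE2T had 66.4 with the combination against 2025 in the control.

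Mitotic genes followed the same split. Of 32 G2/M genes, 25 were called lower in KBM5 (median -1.89) and 1 in K562 (median -0.18), and the line difference passed for 10. CDK1, the mitotic kinase, had 5753 with the combination against 5344 in the control in K562, and 266 with the combination against 2099 in the control in KBM5. CCNA2, cyclin A, had 11855 with the combination against 19382 in the control in K562, and 1211 with the combination against 8793 in the control in KBM5. MAD2L1, of the spindle checkpoint, was the 1 called in both, at 626 with the combination against 1591 in the control in K562, and 114 with the combination against 1287 in the control in KBM5. BUB1B, another checkpoint gene, had 1077 with the combination against 6593 in the control in KBM5. The proliferation marker MKI67 had 3687 with the combination against 4317 in the control in K562, and 1079.7 with the combination against 2865 in the control in KBM5, a 2.65-fold fall there. Of 26 replication-dependent histone genes, which are transcribed in S phase, 21 were called lower in KBM5 (median -2.09) and none in K562 (median -0.31), and 10 passed the line difference. The histone H2B gene H2BC14, which is not in this list, was called higher in K562, at 5283 with the combination against 18.9 in the control. H4C9, H2AC4, H2BC11 and H3C7 fell most in KBM5, but histone genes are near-identical copies, so single members are uncertain. The labels give no cell counts or phase measurements, and in bulk RNA fewer cycling cells and less transcript per cell cannot be told apart.

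CDKN1C, the CDK inhibitor p57, rose in both, at 2009.6 with the combination against 600.1 in the control in K562, and 1386 with the combination against 508 in the control in KBM5. ZMAT3, an RNA-binding protein, was called lower in K562, at 69.7 with the combination against 199.8 in the control, and higher in KBM5 on arrays at background. GADD45B, a stress sensor, rose 3.3-fold in KBM5, at 2606 with the combination against 789 in the control. CDKN1A was at background on all 4 arrays. CDKN1B, the CDK inhibitor p27, had 657 with the combination against 322 in the control in K562, and 1959 with the combination against 1003 in the control in KBM5, and passed in neither line (adjusted p = 0.11 and 0.083).

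Of 5 anti-apoptotic genes of the BCL2 family, 2 were called lower and none higher in K562, and 1 higher and none lower in KBM5. Only MCL1 was called in both lines, in opposite directions. MCL1, which holds BIM and NOXA in check, had 3039.5 with the combination against 13147 in the control in K562, a 4.33-fold fall (adjusted p = 0.012). In KBM5 MCL1 had 14192 with the combination against 5706 in the control, a 2.49-fold rise (adjusted p = 0.049), and the difference between lines was -3.43 ± 0.55 (SE, adjusted p = 0.0081). BCL2L1, the gene of BCL-XL, went to background in K562, at 155 with the combination against 863 in the control, at least 4.74-fold lower, and was at background on both KBM5 arrays. Of 18 pro-apoptotic genes and death receptors, 1 was called higher and 3 lower in K562, and 4 higher and none lower in KBM5. BMF, a BH3-only killer, had 958 with the combination against 124 in the control in KBM5, at least 3.64-fold higher. It was also the 1 called higher in K562, where both arrays were at background. The death ligand TNFSF10 (TRAIL) rose at least 3.48-fold in KBM5, to 916 with the combination, against 93.9 in the control. CASP9 was called higher in KBM5 on arrays at background. CASP8, the caspase that death receptors start, rose 3.7-fold in KBM5, at 9288 with the combination against 2513 in the control. In K562 the 3 lower genes were BID and the TRAIL receptor genes TNFRSF10A and TNFRSF10B, of which TNFRSF10B was at background on both arrays; TNFRSF10A had 195 with the combination against 585 in the control. BCL2L11, the BIM gene, had 1147 with the combination against 627 in the control in K562, and 2532 with the combination against 1345 in the control in KBM5, and passed in neither line (adjusted p = 0.21 and 0.12).

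K562 cells carried a broad rise of red cell genes. Of 9 measured globin genes, counting their chaperone AHSP, 6 were called higher and none lower in K562 (median 2.78), with none called in KBM5. HBZ, already bright, had 473566 with the combination against 58796 in the control, 8.05-fold higher. HBB, the adult beta globin gene, had 54465 with the combination against 2396 in the control, 22.7-fold higher, and AHSP, the alpha globin chaperone, had 828 with the combination against 8.48 in the control, at least 5.14-fold higher. HBA1 and HBD also rose, but may share signal with the globin genes beside them, which they resemble closely.

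Heme synthesis rose with the globins: 10 of 22 heme and iron genes were called higher and none lower in K562 (median 1.26), against 2 higher and 2 lower in KBM5, and the line difference passed for 8. ALAS2, the rate-limiting erythroid enzyme of heme synthesis, had 90007 with the combination, 4611 with OR21 alone, 75928 with IM alone and 383 in the control in K562. It rose 235-fold over the control (log2 difference 7.88 ± 0.80, SE, adjusted p = 0.00063) and was at background on both KBM5 arrays. FECH, which inserts iron into heme, had 11012 with the combination against 551 in the control in K562, and 247 with the combination against 319 in the control in KBM5. SLC25A37, the mitochondrial iron importer mitoferrin, had 25763 with the combination against 1167 in the control in K562, and 1199 with the combination against 1078 in the control in KBM5. UROS, CPOX and PPOX, further enzymes of the pathway, and the transporter ABCB10 also rose in K562. In KBM5 the iron storage adaptor NCOA4 rose 5.8-fold, and it rose 3.48-fold in K562, at 13651 with the combination against 3919 in the control in K562, and 6823 with the combination against 1177 in the control in KBM5. The ferritin light chain gene FTL was the other called higher in KBM5, 2.22-fold, and FLVCR1, a heme exporter, was called lower on arrays at background.

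Red cell membrane genes and erythroid regulators rose in K562, with 18 of 30 called higher and 1 lower (median 2.08), against 3 higher and 1 lower in KBM5 (median 0.11). EPB42, whose promoter carries the GATA elements shown above, had 5624 with the combination, 263 with OR21 alone, 2456 with IM alone and 15.6 in the control in K562. That is at least 34.9-fold higher than the control. SLC4A1, the band 3 anion exchanger, had 3654 with the combination, 13.6 with OR21 alone, 689 with IM alone and 10.2 in the control in K562. CA1, carbonic anhydrase of mature red cells, had 4064 with the combination, 91.6 with OR21 alone, 2076 with IM alone and 18.6 in the control in K562. These 3 genes were highest with the combination among the 4 K562 arrays, and in KBM5 they were at background on both arrays; with 1 array per treatment, the gap between the combination and IM alone has no error of its own here. The blood group genes KEL, RHCE and RHD rose 32.5-fold, 19.8-fold and 17.1-fold, with RHCE and RHD near-identical copies of each other. The water channel gene AQP1 had 9494 with the combination, 752 with OR21 alone, 2656 with IM alone and 95.3 in the control in K562. DUSP21, a phosphatase, and CYP3A5, a drug-metabolising enzyme, were also among the largest rises in K562; DUSP21 had 1751 with the combination, 36.4 with OR21 alone, 339.9 with IM alone and 12.1 in the control, and CYP3A5 had 6374 with the combination, 152 with OR21 alone, 3219 with IM alone and 56.6 in the control. Of the KBM5 calls in this list, NFE2, a factor of red cells, platelets and myeloid cells alike, had 2182 with the combination against 199.9 in the control, while GFI1B, XK and ADD2 were called on arrays at background.

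The regulators moved with them. KLF1, the factor of terminal erythroid genes, had 2453 with the combination against 429 in the control in K562, TAL1 had 2695 with the combination against 585 in the control, and the erythropoietin receptor gene EPOR had 728 with the combination against 151 in the control. MYB, which keeps progenitors immature, fell 4.03-fold, at 4442 with the combination against 17919 in the control. GATA2, the progenitor factor that GATA1 replaces during erythroid maturation, went to background, at 143 with the combination against 1461 in the control, at least 8.03-fold lower. GATA1 had 13517 with the combination against 10445 in the control (adjusted p = 0.65). MECOM and MEIS1, stem cell factors, were at background with the combination, with 39.6 for MECOM and 69.1 for MEIS1, against 352 and 189 in the control. Of 18 megakaryocyte genes 1 was called higher, the platelet tubulin TUBB1, at 4765 with the combination, 136 with OR21 alone, 3715 with IM alone and 45.4 in the control, and 1 lower, MEIS1; in KBM5 3 were called higher, THBS1, the factor gene FLI1 and PLEK, and none lower.

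**Figure D4:**
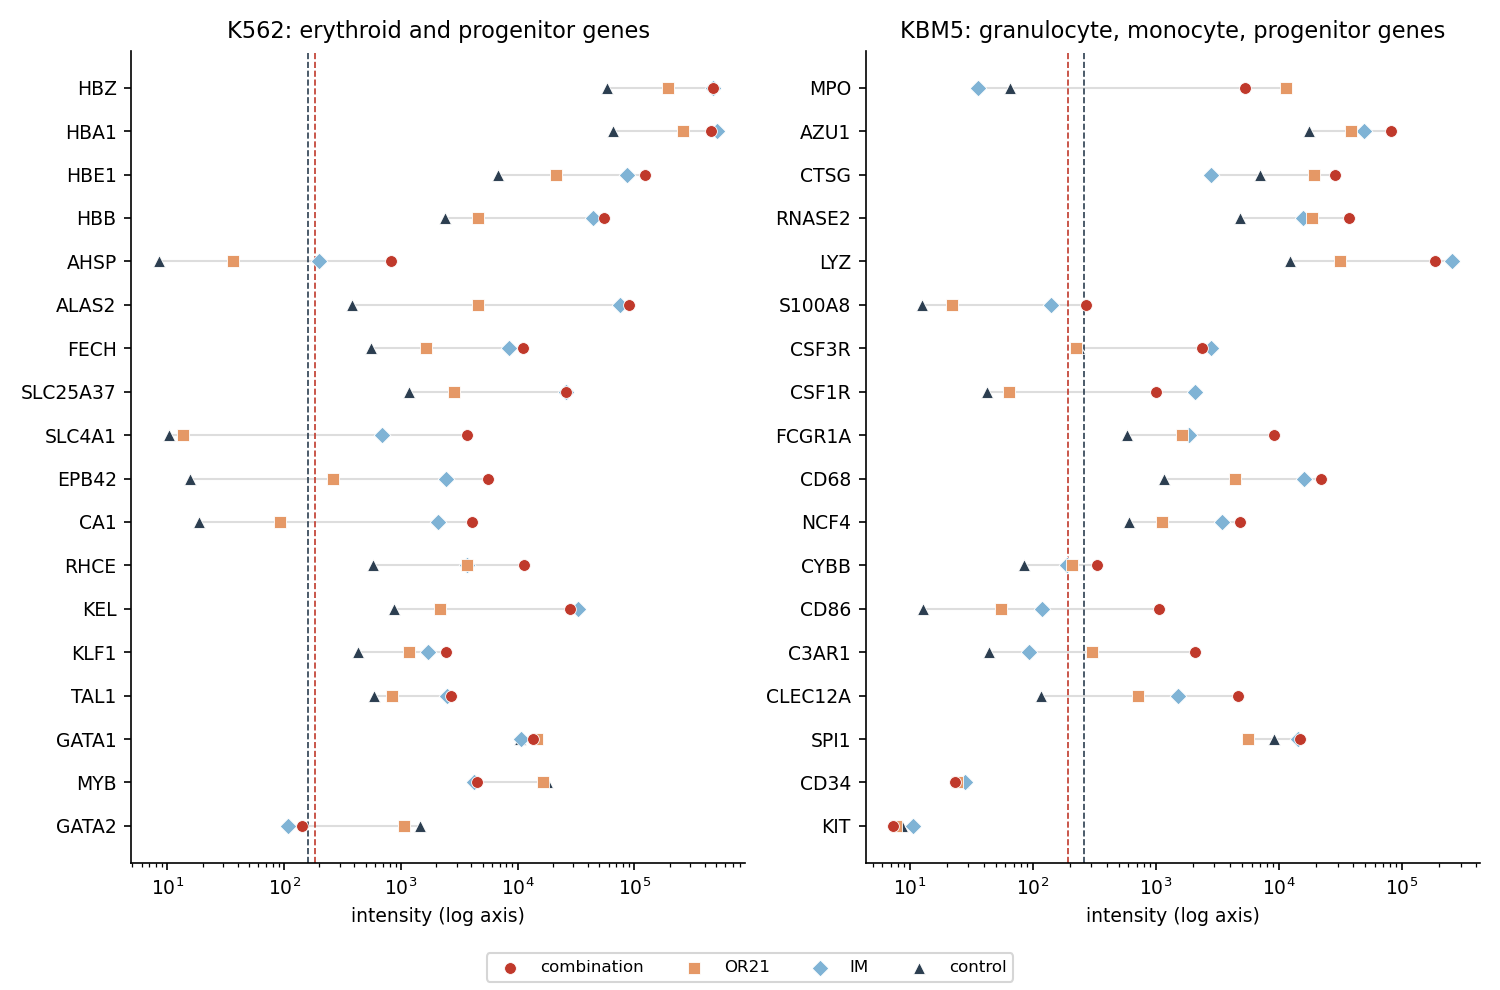
Intensity (log axis) on all 4 arrays of K562 for erythroid and progenitor genes (left) and of KBM5 for granulocyte, monocyte and progenitor genes (right): red circles combination, orange squares OR21 alone, blue diamonds IM alone, dark triangles control, 1 array each. Dashed lines mark background on the combination array (red) and the control array (dark); ALAS2 stands at 90007 with the combination, against 383 in the control.

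KBM5 cells carried a rise of granulocyte and monocyte genes instead. Of 28 such genes, 15 were called higher and none lower in KBM5 (median 1.45), against 1 higher (LTF, on arrays at background) and 1 lower in K562, and the difference between lines passed for 11. MPO, the peroxidase of neutrophil granules, had 5282 with the combination, 11442 with OR21 alone, 35.9 with IM alone and 65.8 in the control in KBM5. The control array was at background, so MPO was at least 20.1-fold higher, and the array with the highest value was OR21 alone. LYZ had 185905 with the combination, 31218 with OR21 alone, 254951 with IM alone and 12342 in the control, 15.1-fold higher with the combination than in the control. CSF1R, the macrophage growth factor receptor, had 1005 with the combination, 63.6 with OR21 alone, 2101 with IM alone and 42.7 in the control, and CSF3R, its granulocyte counterpart, had 2395 with the combination, 224 with OR21 alone, 2802 with IM alone and 236 in the control. The lysosomal macrophage protein CD68 had 22126 with the combination against 1176 in the control, 18.8-fold higher, and the calcium-binding alarmin S100A8 had 270.2 with the combination, just above the control's background, against 12.6 in the control.

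Other named KBM5 genes include further receptors and adaptors of myeloid cells. CLEC12A, an inhibitory lectin receptor of myeloid cells, had 4641 with the combination, 722 with OR21 alone, 1512 with IM alone and 116 in the control. FYB1, an adaptor of immune receptors, had 11154 with the combination, 499 with OR21 alone, 10689.7 with IM alone and 246 in the control. CHI3L1, a secreted macrophage protein, had 6299 with the combination, 406 with OR21 alone, 2229.8 with IM alone and 135 in the control. MYBPH, a myosin-binding protein, had 1220.3 with the combination, 75.0 with OR21 alone, 554 with IM alone and 28.0 in the control. FCGR1A, the high-affinity antibody receptor, had 9135 with the combination against 585 in the control, and the oxidase subunit gene NCF4 had 4851 with the combination against 604 in the control. SPI1, which drives both lineages, had 14862 with the combination against 9209 in the control (adjusted p = 0.28). GFI1, a transcriptional repressor that acts within the granulocyte branch, rose 3.73-fold to 12002 with the combination, against 3216 in the control.

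Several genes were called in opposite directions in the 2 lines. FCGR2A, the low-affinity antibody receptor, had 685 with the combination against 28574 in the control in K562, a 41.7-fold fall, and 6469.8 with the combination against 1266 in the control in KBM5, a 5.11-fold rise. Its near-identical copy FCGR2C moved in the same way and may share signal. LCP2, an adaptor of immune signalling, had 29.5 with the combination against 532 in the control in K562, and 3049 with the combination against 527 in the control in KBM5. S100A11, a calcium-binding protein, had 1460.3 with the combination against 12899.8 in the control in K562, and 40914 with the combination against 4260.0 in the control in KBM5. PRKCB, a protein kinase C, had 578 with the combination against 7927 in the control in K562, and 1395 with the combination against 210.0 in the control in KBM5. LYN, the SRC-family kinase tied to imatinib resistance, had 885 with the combination against 3123 in the control in K562, and 11906 with the combination against 4015 in the control in KBM5, with a line difference of -3.39 ± 0.48 (SE, adjusted p = 0.0051). CD69, an early activation marker of lymphocytes, went to background in K562, at 44.1 with the combination against 4017 in the control, and was at background on both KBM5 arrays.

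Some genes crossed from background on one array of a pair to at least 4 times background on the other. In K562 27 genes came on with the combination (0.153% of those tested) and 17 went off (0.0961%), and in KBM5 55 came on (0.311%) and 60 went off (0.339%). LRP8 and SLC2A3 went off in both lines. TBC1D30, a RAB regulator, was among the KBM5 genes that went off, at 19.3 with the combination, 359.7 with OR21 alone, 24.8 with IM alone and 1839 in the control. In KBM5 the off genes held replication, amino acid and lipid genes such as CDC45, MCM2, TK1, PHGDH, ASNS and FASN. Of these 60, 56 were above background with OR21 alone and at background with IM alone, and the other 4 were above background with both single drugs. Of the 55 that came on in KBM5, 33 were above background with both single drugs, 13 with IM alone, 6 with OR21 alone and 3 with neither. In K562 the counts of the 27 were 15, 9, 2 and 1. Each array was judged by its own background, in KBM5 189 with OR21 alone, 229 with IM alone and 263 in the control. The split thus depends in part on unequal background levels. CSF3R counted with both single drugs, though it had 224 with OR21 alone and 236 in the control. The combination and each single drug share 1 control array per line, so these are levels set side by side and not independent effects.

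The genes that came on with the combination and with OR21, but not with IM alone, are given in full because demethylating agents are known to reopen silenced promoters. H2BC14, a histone H2B gene, had 5283 with the combination, 20592 with OR21 alone, 12.9 with IM alone and 18.9 in the control in K562. GCNA, a germ cell nuclear antigen, had 857 with the combination, 1523 with OR21 alone, 48.7 with IM alone and 40.5 in the control in K562. In KBM5, PPP1R27 had 3800.4 with the combination, 12564 with OR21 alone, 68.2 with IM alone and 22.1 in the control. C3AR1, the receptor of complement fragment C3a, had 2096 with the combination, 306 with OR21 alone, 93.3 with IM alone and 43.7 in the control in KBM5. RAB13, PRG2 and FCGR1BP completed the KBM5 group of 6 with MPO. RAB13, a small GTPase of membrane traffic, had 1307 with the combination, 489 with OR21 alone, 69.1 with IM alone and 67.0 in the control. PRG2, the eosinophil granule protein, had 1189.5 with the combination, 14082 with OR21 alone, 35.8 with IM alone and 209 in the control. FCGR1BP is a near copy of the Fc receptor gene FCGR1A, and its probes may not tell the copies apart. It had 1161 with the combination, 289 with OR21 alone, 228.3 with IM alone and 113 in the control. Its IM value lay just under that array's background of 228.7, so its place in this group is uncertain. H2BC14, GCNA, MPO, PPP1R27 and PRG2 were higher with OR21 alone than with the combination, whereas C3AR1, RAB13 and FCGR1BP were highest with the combination.

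In 4 genes the combination array was at least 4 times background and the other 3 arrays of the line were at background. LXN, in K562, had 5632 with the combination, 160.1 with OR21 alone, 44.8 with IM alone and 35.6 in the control. In KBM5 the secreted lipid enzyme ENPP2 had 2231 with the combination, 123 with OR21 alone, 200.5 with IM alone and 157 in the control, the matrix protein THBS1 had 1380.4 with the combination, 86.0 with OR21 alone, 92.4 with IM alone and 35.6 in the control and the T cell costimulator CD86 had 1056 with the combination, 55.5 with OR21 alone, 118 with IM alone and 12.8 in the control. Each value is 1 array, and LXN was at least 35-fold above its control's background. With OR21 alone LXN lay just under that array's background of 162.5, so its place among these genes is uncertain. ENPP2 with IM alone also lay not far under that array's background of 228.7. The promoter windows of LXN and PPP1R27, printed above, have 7 and 12 CG dinucleotides in the bases shown. Over 300-base windows the median was 9 in the 22 promoters of genes that came on in K562 and 8 in the 41 of KBM5, against 32 in 15 promoters that went off in K562, 29.5 in 44 that went off in KBM5 and 22 in all 14250. Methylation was not measured here.

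**Figure D5:**
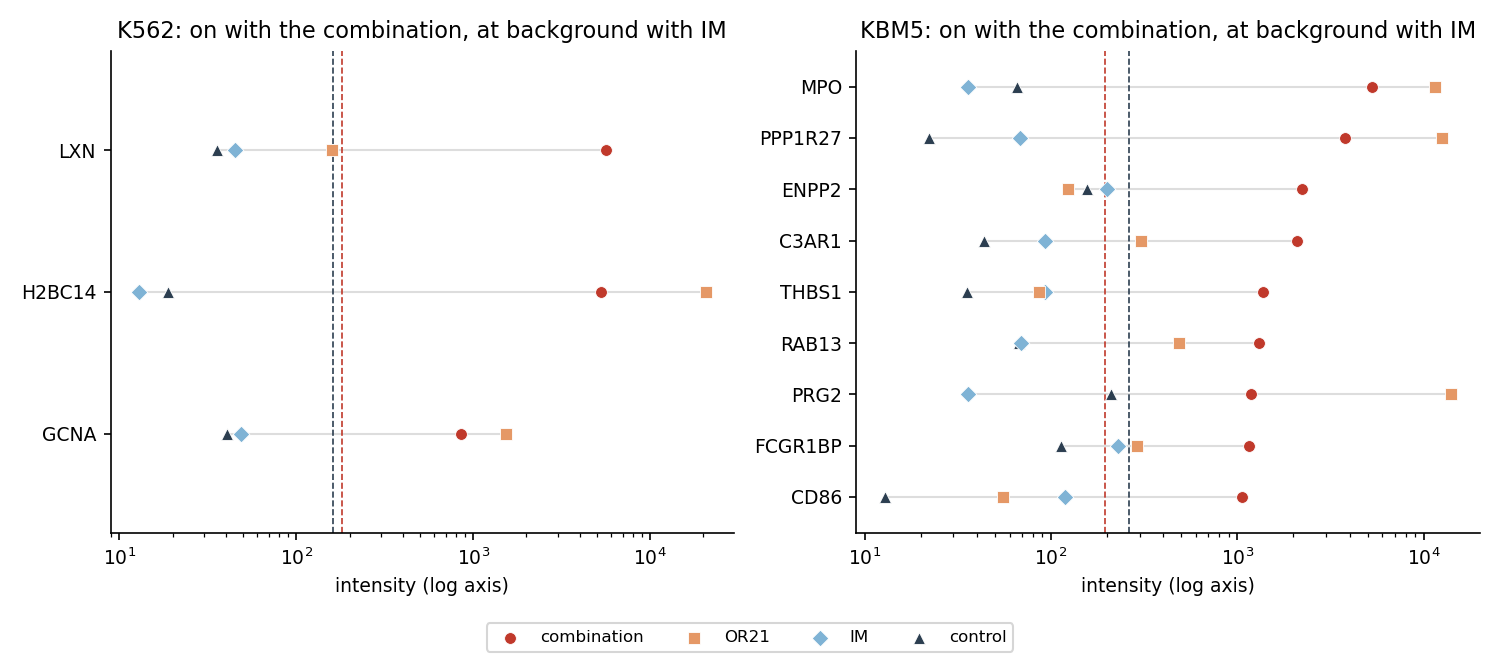
Intensity (log axis) on the 4 arrays of K562 (left) and KBM5 (right) for genes that came on with the combination while at background with IM alone: red circles combination, orange squares OR21 alone, blue diamonds IM alone, dark triangles control, 1 array each. Dashed lines mark background on the combination array (red) and the control array (dark); LXN stands at 5632 with the combination, against 35.6 in the control.

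Of the gene classes that demethylating agents are known for, cancer-testis antigens and germline genes gave few calls in either line, and interferon-stimulated genes gave calls mainly in KBM5. Of 30 cancer-testis antigens, 1 was called higher in K562 and none in KBM5; PAGE2B had 219 with the combination, 114 with OR21 alone, 95.1 with IM alone and 30.2 in the control in K562. The antigen gene PRAME had 99492 with the combination against 108838 in the control in K562, and 4016 with the combination against 2424 in the control in KBM5, and MAGEB2 had 380.0 with the combination against 504 in the control in K562, and 19.9 with the combination against 48.3 in the control in KBM5; neither was called in either line. Of 27 germline genes, 2 were called higher in K562, and 1 higher and 1 lower in KBM5, each on a pair of arrays at background (HORMAD1 and TUBA3D in K562, MAEL and STK31 in KBM5). Interferon-stimulated genes gave 2 higher and 1 lower of 38 in K562, and 10 higher and 2 lower in KBM5 (median 0.43), where 7.14% of all genes were called higher. In KBM5 IFITM3, which blocks virus entry, had 8272 with the combination against 1785 in the control and IRF9, a factor of the interferon response complex, had 712 with the combination against 125 in the control. SAMD9, an antiviral factor, had 1558 with the combination against 190.0 in the control, and USP18, which damps interferon signalling, was lower, at 65.9 with the combination against 518 in the control. In K562 IFITM1 was the 1 lower, at 67403 with the combination against 204300.0 in the control, and the 2 higher, IFIH1 and IFIT1, were at background on both arrays. Of 24 antigen presentation genes and NK ligands, 3 were higher and 1 lower in KBM5; HLA-C, a class I heavy chain, had 3533 with the combination against 1031 in the control, its relative HLA-E had 2241 with the combination against 488 in the control and the MHC class II chaperone CD74 had 195 with the combination against 32.6 in the control. In K562 the peptide loader TAPBP was the 1 higher, at 1148 with the combination against 415 in the control, and TAP2 the 1 lower, at background on both arrays.

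Genes that maintain DNA methylation fell in KBM5. DNMT1, which demethylating nucleosides trap, had 409 with the combination against 1626 in the control in KBM5, 3.97-fold lower, and 727 with the combination against 905 in the control in K562 (adjusted p = 0.69). UHRF1, which guides DNMT1 to replicated DNA, had 1304 with the combination against 1531 in the control in K562, and 622 with the combination against 7876 in the control in KBM5, and the line difference passed (adjusted p = 0.015). DNMT3B, a de novo methyltransferase, fell in K562, at 225 with the combination against 1455 in the control, and was at background on both KBM5 arrays. TET2, which oxidises methylcytosine, came on in KBM5, at 1879.5 with the combination against 149 in the control. SAMHD1, a nucleotide hydrolase that degrades decitabine triphosphate, had 381 with the combination against 378 in the control in K562, and 13151 with the combination against 1627 in the control in KBM5, 8.08-fold higher there. SLC29A1, the main nucleoside importer, had 6302 with the combination against 2167 in the control in K562, and 885 with the combination against 3719.6 in the control in KBM5, 4.2-fold lower there. DCTPP1, a nucleotide pyrophosphatase, fell in both lines, and DUT, which keeps uracil out of DNA, fell 7.62-fold in KBM5, at 535 with the combination against 4071 in the control. In all, 2 of 24 genes of DNA methylation and decitabine handling were called higher and 9 lower in KBM5, and none higher and 2 lower in K562.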

How the data were processed

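RNA of 8 cultures, 2 lines by 4 treatments, was hybridised to 1 array each. The deposited values are linear intensities per probe set, per the file's value table; no label names the scanner software or a normalization, and neither is given in the sources used. Of 24351 probe sets, 17709 had 1 gene symbol in the platform annotation and none had several, and the brightest stood for each of 17687 genes; 612 were negative controls, 3739 transcript clusters had no symbol and were left out. Log2 of the deposited intensities, as given, was fitted with limma 3.58.1 in R 4.3.3: treatment plus line over 8 arrays (3 residual degrees of freedom), and own baseline, OR21 and IM terms per line (2 residual degrees of freedom). The number of arrays limits the precision.

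Genes were named by rule: over both lines, up to 12 of the largest called changes each way, bright in both lines; per line, the 10 largest each way; 8 each way for the difference between lines; up to 4 per list and contrast with any opposite call; and signalling, survival and lineage genes always named. Other genes were picked after their values were seen, as markers or examples. Some genes and 1 gene list are not reported here. The members and lists were chosen with earlier results of these data known. P-values rest on how far the lines disagree, or on the departure from additive drug effects, and part of either may be technical. No spread between replicate arrays was measured. Alternatives were quantile normalization, an added constant, brighter genes, moderation settings, each array left out, fold thresholds and background percentiles.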

Additional observations from a re-analysis of the deposited data

Results flagged for a closer look

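The difference between lines, K562 minus KBM5, passed limma's test for 831 genes, a direct test of unlike responses to the same treatment. Among the genes higher in K562, the difference on the log2 scale was 9.21 for EPB42, 8.28 for SLC4A1, 7.41 for the phosphatase DUSP21, 7.29 for ALAS2, 7.27 for CA1, 7.13 for AQP1, 7.05 for H2BC14 and 6.96 for TUBB1. Among those lower in K562 it was -7.76 for C3AR1, -7.74 for FCGR2A, -7.53 for EGR1, -7.48 for CD69, -6.70 for LCP2, -6.63 for MPO, -6.51 for PRKCB and -6.41 for S100A11. For genes at background in the dim array these are fitted values and not bounds. By list, the difference passed for 26 genes of G1/S and DNA replication, 10 of G2/M, 15 erythroid membrane and regulator genes, 11 granulocyte and monocyte genes and 10 histone genes. The cause of any of these differences was not tested.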

How the results depend on the processing

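The design holds 1 array per line and treatment, so the error of a line is its departure from additivity, the pairs share control arrays with the single drugs, and intensities near background carry no order. For both lines together, the 35 calls became 20 after quantile normalization, 22 among brighter genes alone, and 0 with log2(value + 16), with the 4 arrays alone and with no block for line (the pairing of arrays by line); leaving out 1 array gave 0 to 2. The K562 calls ranged from 20 to 1612 with 1 array left out, and those of KBM5 from 734 to 3301. The line difference was called for 1276 genes with trend and robust moderation and for 48 to 1506 with 1 array left out. The named genes kept their direction in every alternative except CD38 in KBM5, whose log2 difference of 1.82 turned to -0.05 (adjusted p = 0.971) without the KBM5 control array and was 3.69 without the KBM5 combination array. The cause of these changes was not tested.

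Counts of genes at least 2-fold apart moved with the threshold. In K562 674 genes were higher and 1063 lower, with 1364 and 2076 at 1.5-fold, 165 and 178 at 4-fold, and 401 and 527 with the 99th percentile as background. In KBM5 1351 were higher and 1202 lower, with 2239 higher at 1.5-fold, 307 and 390 at 4-fold, and 572 and 720 with the 99th percentile. Genes coming on and going off, at 4 times background, numbered 27 and 17 in K562 and 55 and 60 in KBM5. At 2 times, a threshold added after seeing the data, as was 8 times, they numbered 95 and 107 in K562 and 189 and 200 in KBM5, and at 8 times 15 and 5 in K562 and 18 and 23 in KBM5. The median over genes above background was -0.14 in K562 and 0.14 in KBM5, and -0.03 and 0.11 after quantile normalization.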

Other observations

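Drug transport and metal binding were also compared. Of 11 genes of drug efflux and imatinib uptake, 3 were called higher and none lower in K562, and 1 lower in KBM5, the glutathione transferase GSTP1. ABCB6, a porphyrin transporter, had 828 with the combination against 116 in the control in K562, and SLC22A4, an organic cation carrier, had 439.8 with the combination against 95.7 in the control, while the uptake carrier SLCO1A2 was just above background with the combination, at 199, and at background in the control. Of 10 genes of the metallothionein list, which holds their regulator MTF1, 1 was called higher in K562 and 2 in KBM5, with medians of 1.03 in K562 and 1.17 in KBM5. MT2A, a zinc-binding protein, rose 5.01-fold in K562, at 16840.3 with the combination against 3359 in the control, and had 35784 with the combination against 13064 in the control in KBM5 (adjusted p = 0.086). MT1B and MT1F were the 2 called in KBM5. Metallothionein genes are close copies and their single values are uncertain.

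Markers of cells other than the 2 lines gave few calls. Of 15 lymphoid genes, CD3D, a T cell receptor subunit, was the 1 called lower in K562, at 29.7 with the combination against 817 in the control, and CD4 the 1 called higher in KBM5, at 16268 with the combination against 3722 in the control. In all 13 of the 15 lymphoid genes in K562 and 12 in KBM5 were at background on both arrays, among them CD3E, CD8A, MS4A1 and PAX5. Their summed intensity was 735 with the combination against 1350.2 in the control in K562, and 18624 with the combination against 5305 in the control in KBM5, where CD4 made up most of it. Of 15 epithelial and stromal genes, the keratin genes KRT8 and KRT18 fell in K562, at 8100.2 with the combination against 38764 in the control for KRT8 and 3417 with the combination against 15706 in the control for KRT18. VIM, the filament of mesenchymal and myeloid cells, and PECAM1, of endothelial and myeloid cells, rose in KBM5, to 7244 and 465 with the combination, against 1702 and 63.0 in the control. Of 13 mast cell, basophil and eosinophil genes, RNASE2, an eosinophil ribonuclease, rose 7.74-fold in KBM5, to 37438 with the combination, against 4836 in the control. The part of such markers in the results was not tested.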
